A study of Homo sapiens with 2 samples.

Results

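Transcripts of 49 genes for the Mediator complex and for coactivators that work with it at super-enhancers were compared in SUM-159, an established line of human breast cancer cells that lack hormone receptors and HER2. The genes were fixed as a list of names: 33 Mediator genes and 16 genes for BET bromodomain readers, histone acetyltransferases, enhancer histone methylation enzymes, transcription kinases with their cyclins, and cohesin with its loader and CTCF. All 49 were found once each among the 60880 rows of the deposited table, and 47 of them had a mean of at least 1 RPKM, the level required of a gene in the counts below. RPKM scales a gene's reads by its length in kilobases and by the library's total of reads on genes.

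Messenger RNA was sequenced in 1 library of cells labelled PD-L1L2-SE deficient and in 1 library of cells labelled sgVector, the control. Going by its name and the series title, PD-L1L2-SE is a super-enhancer tied to PD-L1 and PD-L2, the ligands of the PD-1 receptor. The labels give both groups the same cell line and name no drug, cytokine or time point. Clone or pool, and the guides' cut sites, are details not given in the sources used here. Since each group had 1 library, there was no spread between replicates, so no difference has a replicate check and no test between the groups was possible. The 95% Clopper-Pearson intervals given with each fold difference cover counting error only.

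Mediator is the large complex that passes signals from enhancer-bound transcription factors to RNA polymerase II. Its head and middle modules contact the polymerase and the general factors, MED14 is the backbone that joins the modules, and the tail takes up most activator contacts. A separable kinase module of CDK8 or CDK19, cyclin C, MED12 or MED12L and MED13 or MED13L binds the core reversibly and controls its access to the polymerase. At super-enhancers Mediator is found in high amounts together with BET proteins, the acetyltransferases p300 and CBP, and cohesin, which holds enhancer and promoter together in loops.

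The libraries held 16381546 reads on genes for the deficient cells and 16206675 for the sgVector cells. CD274 (PD-L1) stood at 0.698 RPKM in the deficient library against 7.16 RPKM, and PDCD1LG2 (PD-L2) at 1.19 against 5.32, both lower under the deficient label. The 4 genes set as typical of the line (VIM, CD44, FN1, EGFR) lay between 25.3 and 746 RPKM in both libraries. VIM itself stood at 389.7 against 746 RPKM, 1.91-fold lower (1.89 to 1.94), a wider gap than that of any member, and FN1 stood 1.296-fold higher (1.28 to 1.31). Of 6 luminal markers, GATA3 alone passed 1 RPKM, and of the leukocyte markers PTPRC, CD3E, ITGAM and CD14 the last alone did, at 15.4 against 11.03 RPKM, with PTPRC and CD3E together at 0 reads for the deficient cells and 4 for the sgVector cells. The endothelial genes CDH5 and KDR had 2 and 13 reads for the deficient cells and 3 and 2 for the sgVector cells. No member lies within 5 Mb of CD274.

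Across the 47 expressed members the differences between the libraries were small. The median log2 ratio of the deficient over the sgVector library, taken on RPKM + 0.1, was 0.05, against -0.03 for the 10576 protein-coding genes that met the same floor and -0.05 for all 13552 genes that did. Ratios were above 0 for 28 members and below 0 for 19, where 46.4% and 53.6% of protein-coding genes were (44.5% and 55.5% of all genes). In bulk RNA, fewer cells with a transcript and less of it per cell cannot be told apart. Members ranged from -0.58 for MED8 to 0.75 for CDK8. By 1.5-fold, 3 members were higher (CDK8, KDM6A and MED7) and 0 were lower, where 6.92% of protein-coding genes were higher and 8.67% lower by that amount (8.29% and 12.6% of all genes). By 2-fold, 0 members were higher and 0 lower, against 2.10% and 2.07% of protein-coding genes (3.03% and 4.69% of all genes). The share of members past 1.5-fold upwards, 6.38%, was thus close to that of other genes. The counting interval lay wholly above no change for 16 members and wholly below it for 13, that is 34.0% and 27.7% of the 47, while 30.0% and 35.4% of protein-coding genes had such intervals (25.9% and 32.6% of all genes). The other 18 members had an interval that included no change.

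**Figure D1:**
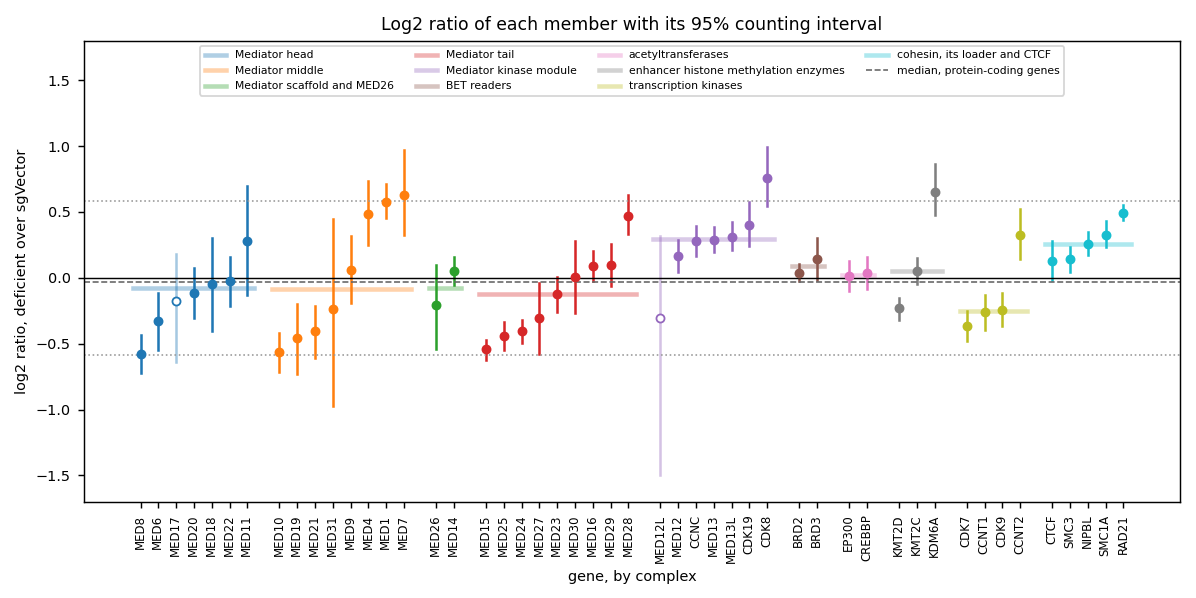
Log2 ratio of the deficient over the sgVector library (vertical axis, on RPKM + 0.1) for each of the 49 genes, grouped by complex. Points are single ratios, vertical lines 95% counting intervals, thick pale lines medians by complex, open points genes under a mean of 1 RPKM, and dotted lines mark 1.5-fold. All 6 filled points of the kinase module lie above 0, from 0.16 to 0.75, while the head, middle and tail spread to both sides.

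All 6 expressed genes of the kinase module stood higher in the deficient library, each with an interval above no change, and their median log2 ratio was 0.30. Ratios above 0 were found for 46.4% of protein-coding genes, and intervals above no change for 30.0%. CDK8, one of its alternative kinases, stood at 7.95 RPKM (461 reads) against 4.67 RPKM (268 reads) with sgVector. That is 1.70-fold higher (1.46 to 1.99), the highest ratio of the 49 genes and the percentile 96.1 among protein-coding genes. Its paralog CDK19 stood at 5.59 against 4.21 RPKM, 1.33-fold higher (1.18 to 1.49). CCNC, which encodes the cyclin partner of both kinases, was the most abundant gene of the module at 14.2 against 11.7 RPKM, 1.21-fold higher (1.12 to 1.32).

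The larger subunits of the module stood 1.12-fold to 1.25-fold higher. MED12, which activates the kinase, stood at 9.67 against 8.63 RPKM, 1.12-fold higher (1.03 to 1.22). MED13, which links the module to the core, stood at 9.75 against 7.97 RPKM, 1.22-fold higher (1.15 to 1.31), and its paralog MED13L at 2.69 against 2.15 RPKM, 1.25-fold higher (1.16 to 1.34). MED12L, the paralog of MED12, was barely expressed, with 19 reads (0.0919 RPKM) against 28 (0.137 RPKM), and its interval included no change. In hg19 coordinates CDK8 (ENSG00000132964) lies on chromosome 13 from 26828241 to 26979375, and CCNC (ENSG00000112237) on chromosome 6 from 99990256 to 100016849.

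The bases before the start sites of these genes are shown because the module's genes stood higher together, with MED10, the core subunit gene with the lowest ratio among those in the sequence table, for contrast. Each line gives the 250 bases before the RefSeq start site in build GRCh38.p14, read 5′ to 3′ on the gene's own strand. They come from chr13:26253879-26254128 (plus strand) for CDK8, chr6:110815856-110816105 (minus strand) for CDK19, chr6:99568815-99569064 (minus strand) for CCNC, chrX:71118346-71118595 (plus strand) for MED12 and chr5:6378548-6378797 (minus strand) for MED10. Capitals mark the GC box GGGCGG, the ETS core CCGGAAG and the CCAAT box CCAAT, each on either strand.
CDK8: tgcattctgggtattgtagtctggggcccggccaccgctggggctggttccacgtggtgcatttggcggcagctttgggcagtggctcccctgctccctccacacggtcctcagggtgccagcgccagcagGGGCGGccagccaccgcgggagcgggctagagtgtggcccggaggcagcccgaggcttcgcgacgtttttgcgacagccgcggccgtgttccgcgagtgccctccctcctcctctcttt
CDK19: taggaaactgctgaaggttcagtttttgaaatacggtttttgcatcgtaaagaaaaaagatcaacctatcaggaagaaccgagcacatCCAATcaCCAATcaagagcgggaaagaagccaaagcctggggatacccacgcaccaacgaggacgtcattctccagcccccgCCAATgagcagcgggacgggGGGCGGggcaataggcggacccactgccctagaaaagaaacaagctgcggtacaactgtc
CCNC: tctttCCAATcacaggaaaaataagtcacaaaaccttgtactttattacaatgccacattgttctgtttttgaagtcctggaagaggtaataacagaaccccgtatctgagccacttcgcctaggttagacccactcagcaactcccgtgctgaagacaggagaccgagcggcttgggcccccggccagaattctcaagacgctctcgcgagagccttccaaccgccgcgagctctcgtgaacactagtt
MED12: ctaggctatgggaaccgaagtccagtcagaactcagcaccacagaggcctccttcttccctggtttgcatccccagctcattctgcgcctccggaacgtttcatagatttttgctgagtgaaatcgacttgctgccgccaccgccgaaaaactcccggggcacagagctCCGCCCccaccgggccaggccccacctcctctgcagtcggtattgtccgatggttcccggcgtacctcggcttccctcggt
MED10: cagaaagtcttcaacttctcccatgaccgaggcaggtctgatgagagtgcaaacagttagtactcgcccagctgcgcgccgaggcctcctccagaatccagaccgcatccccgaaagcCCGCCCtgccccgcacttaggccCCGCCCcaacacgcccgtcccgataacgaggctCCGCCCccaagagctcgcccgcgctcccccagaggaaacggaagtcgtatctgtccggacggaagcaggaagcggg

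The windows differed within the module. CDK8 and MED12 hold 1 GC box each and 0 CCAAT boxes, CDK19 holds 1 GC box and 3 CCAAT boxes, and CCNC holds 0 GC boxes and 1 CCAAT box. The window of MED10 holds 3 GC boxes and 0 CCAAT boxes. That of the module gene MED13L, which is not printed, holds 4 GC boxes and 1 CCAAT box. The GC box count of MED10 thus does not set it apart from the module. Of the 40 members found in the RefSeq promoter table, 72.5% had a GC box, 22.5% an ETS core, and 32.5% a CCAAT box, while 2 of 40 had a TATA box (TATAAA). The corresponding shares were 69.1%, 17.0%, 35.5% and 5.09% over the 8699 expressed protein-coding genes in that table, and 42.3%, 8.82%, 33.0% and 11.1% over all 27305 windows of the same length. The ETS core was present in 0 of 6 kinase module windows, and the CCAAT box in 4 of 6. These 6 windows lack MED13, which was not matched, and include that of MED12L, which was below the floor and holds 1 of the 4 CCAAT windows. CCAAT boxes were in 7 of the 13 windows of members whose interval lay above no change and in 3 of the 10 windows of those below it. The GC box was in 9 of 13 and 8 of 10 of these windows, and the ETS core in 3 of 13 and 3 of 10. The NRF1, CRE, E-box, YY1 and AP-1 motifs were also searched for, and no such split was tested. These matches describe letters in the reference sequence, and binding was not measured.

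**Figure D2:**
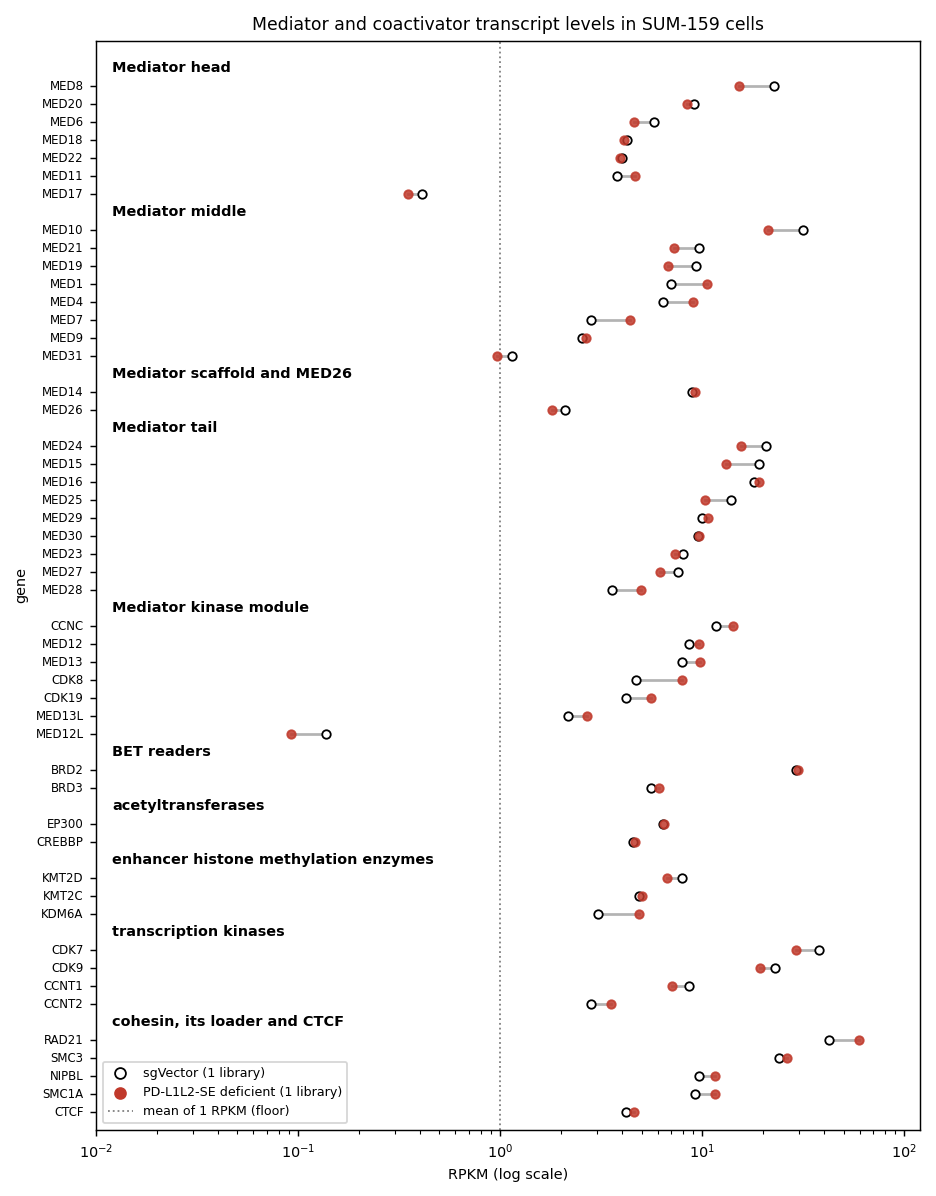
RPKM on a log axis for each gene in the sgVector library (open circles) and the deficient library (filled circles), 1 library each, sorted within each complex by the sgVector value. RAD21 is the highest, at 59.6 against 42.3 RPKM, and MED17 and MED12L lie under the dotted line at 1 RPKM in both libraries.

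Among core Mediator subunits the ratios went both ways. Of 25 expressed core genes 10 had a ratio above 0 and 15 below, with a median of -0.11, where 46.4% and 53.6% of protein-coding genes had such ratios. The intervals of 4 lay above no change and those of 9 below it, beside 30.0% and 35.4% of protein-coding genes, so the share below was close to that of other genes. In the head, the module that contacts the polymerase and TATA-binding protein, 5 of 6 expressed genes were below 0 and the median was -0.08. MED8 stood at 15.2 RPKM (674 reads) against 22.7 RPKM (996 reads), 1.49-fold lower (1.35 to 1.65), and was the lowest of all members, just short of 1.5-fold. MED6 stood at 4.601 against 5.79 RPKM, 1.26-fold lower (1.08 to 1.46). These were the 2 head genes with intervals apart from no change.

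MED20 and MED18, which pair with each other in the head, and MED22 had ratios between -0.11 and -0.03 with intervals that included no change. MED11, which pairs with MED22, stood at 4.63 against 3.80 RPKM from 112 and 91 reads, and its interval also included no change (0.915 to 1.62 in fold). MED17, a central subunit of the head, was listed at 0.349 against 0.409 RPKM. Its annotated exon length of 16610 bases exceeds that of every other head gene, and 12.98% of that length is shared with another row on the same strand that has 0 reads in both libraries. The level of MED17 is uncertain, since the treatment of reads in shared exons is a setting not given in the sources used here.

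In the middle module ratios also went to both sides. MED1, the subunit that nuclear receptors bind, stood at 10.5 RPKM (1260 reads) against 7.01 RPKM (833 reads), 1.496-fold higher (1.37 to 1.64). MED7 stood at 4.38 against 2.80 RPKM, 1.57-fold higher (1.25 to 1.96), and MED4 at 9.01 against 6.41 RPKM, 1.41-fold higher (1.19 to 1.66). In the other direction MED10, the most abundant Mediator transcript in both libraries, stood at 21.2 RPKM (652 reads) against 31.3 RPKM (955 reads), 1.48-fold lower (1.34 to 1.64). MED19 and MED21 were 1.38-fold (1.15 to 1.66) and 1.33-fold (1.16 to 1.52) lower. Thus 3 of 8 middle genes had intervals above no change and 3 below it. Such intervals were found for 30.0% and 35.4% of protein-coding genes, so both shares were close to those of other genes. Among the 3 above was MED7 and among the 3 below MED21, whose products bind each other along their length. MED9 had a ratio of 0.06 and MED31, from 33 and 39 reads, one of -0.23, both with intervals that included no change.

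MED14, the backbone of the complex, stood at 9.24 against 8.91 RPKM from 1462 and 1394 reads, a log2 ratio of 0.05 with an interval of 0.964 to 1.12 in fold. MED26, which recruits elongation factors to Mediator, stood at 1.798 against 2.10 RPKM, with an interval of 0.689 to 1.07 in fold. Both intervals included no change, and that of MED14 was the narrower.

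The tail had a median of -0.12 over 9 genes, with 4 intervals below no change and 1 above. Such intervals were found for 35.4% and 30.0% of protein-coding genes. MED15, which binds activators such as SREBP, stood at 13.1 RPKM (2218 reads) against 19.1 RPKM (3207 reads), 1.46-fold lower (1.38 to 1.54). MED25 and MED24 were 1.36-fold (1.26 to 1.46) and 1.33-fold (1.25 to 1.41) lower, and MED27 1.24-fold lower (1.03 to 1.49). MED28 alone stood clearly higher, at 4.97 against 3.56 RPKM, 1.397-fold (1.26 to 1.55). The tail genes MED16, MED23, MED29 and MED30 had ratios from -0.12 to 0.10 with intervals that included no change. Without MED27 to MED30, which structures place between head and tail, the tail median was -0.40 over the other 5 genes.

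BET proteins and acetyltransferases, the readers and writers of enhancer acetylation, had nearly equal transcript levels in both libraries. BRD2 stood at 29.9 RPKM (3588 reads) against 29.03 RPKM (3452 reads), with a fold interval of 0.981 to 1.08, and BRD3 at 6.13 against 5.55 RPKM, with one of 0.989 to 1.23. EP300, which encodes p300, stood at 6.44 against 6.38 RPKM (0.934 to 1.09 in fold), and CREBBP, which encodes CBP, at 4.66 against 4.54 RPKM (0.945 to 1.11). The log2 ratios of the 4 genes lay between 0.01 and 0.14. Their intervals all included no change, with a widest upper bound of 1.23-fold.

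Among the enzymes that set and clear histone methylation at enhancers, KDM6A stood apart from its partners. KDM6A, the H3K27 demethylase of the KMT2C and KMT2D complexes, stood at 4.87 RPKM (569 reads) against 3.06 RPKM (354 reads), 1.59-fold higher (1.39 to 1.82). It lies on chromosome X from 44732423 to 44971847 in hg19 (ENSG00000147050). KMT2D, an H3K4 methyltransferase, was slightly lower at 6.71 against 7.90 RPKM, 1.18-fold (1.11 to 1.25), and KMT2C stood at 5.03 against 4.84 RPKM with an interval of 0.968 to 1.11 in fold. The 7 genes of other subunits of these complexes went both ways. Their median was -0.06, with the lowest at -0.40 (DPY30) and the highest at 0.37 (RBBP5), and 0 of 7 passed 1.5-fold either way.

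Of the kinases that phosphorylate the tail of RNA polymerase II, CDK7 and CDK9 stood lower. The median of their group with its cyclins was -0.25, or -0.0074 after subtraction of chromosomal neighbours. Other kinase genes of the transcription machinery did not stand lower. The log2 ratios of CDK12, CDK8 and CDK19 were 0.33, 0.75 and 0.40, and that of CDK13 was 0.06. CDK7, the kinase of TFIIH, stood at 29.2 RPKM (1155 reads) against 37.6 RPKM (1472 reads), 1.29-fold lower (1.19 to 1.39). CDK9, the kinase of the elongation factor P-TEFb, was 1.18-fold lower (1.08 to 1.29) and its cyclin partner CCNT1 1.20-fold lower (1.096 to 1.32). The alternative cyclin CCNT2 went the other way, at 3.55 against 2.82 RPKM, 1.26-fold higher (1.105 to 1.43). After removal of GC and length trends the log2 ratios of CDK9 and CCNT2 were -0.088 and 0.078, and those of CDK7 and CCNT1 -0.43 and -0.44. The genes of both partners of CDK7 in its trimeric kinase were lower too. These were MNAT1 at 6.93 against 11.3 RPKM, 1.63-fold (1.45 to 1.84), and CCNH at 8.60 against 10.2 RPKM, 1.19-fold (1.08 to 1.30). CCNH was singled out after its value was seen. Over the 7 expressed TFIIH partners of CDK7 the median was -0.20, with 1 gene (MNAT1) past 1.5-fold lower and 0 higher.

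All 5 genes of the cohesin group had ratios above 0, with a median of 0.26, and 4 of 5 intervals lay above no change, where 46.4% of protein-coding genes had such ratios and 30.0% such intervals. The median was 0.0162 after removal of GC and length trends, with SMC3 at -0.02 and NIPBL at 0.0013, and 0.097 after subtraction of chromosomal neighbours. RAD21, which closes the cohesin ring, was the most abundant of the 49 genes at 59.6 RPKM (6047 reads) against 42.3 RPKM (4244 reads), 1.41-fold higher (1.36 to 1.47). SMC1A, SMC3 and the loader gene NIPBL stood at 11.5 against 9.16, 26.4 against 23.9 and 11.6 against 9.67 RPKM. Their folds were 1.26 (1.18 to 1.35), 1.10 (1.03 to 1.18) and 1.20 (1.13 to 1.27) higher. CTCF, which stops cohesin at loop anchors, stood at 4.602 against 4.197 RPKM with an interval of 0.988 to 1.22 in fold. Of 8 cohesin partner genes from a separate list, 7 were above 0 with a median of 0.37, which was 0.14 after the GC and length correction and 0.15 after subtraction of neighbours. STAG1, an alternative subunit that binds the ring, was the only one past 1.5-fold, at 4.73 against 2.48 RPKM, 1.91-fold higher (1.66 to 2.19).

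Paralog balance was compared in 7 pairs, as the share of 1 gene in the pair's summed RPKM. The share of CCNT1 in the sum of CCNT1 and CCNT2 was 66.7% with the enhancer deficient and 75.2% with sgVector, a difference of -8.47 percentage points (-12.1 to -5.01). CDK8 made up 58.7% of the CDK8 and CDK19 sum against 52.6%, 6.11 points more (1.36 to 10.7). KMT2C made up 42.8% of the KMT2C and KMT2D sum against 38.01%, 4.804 points more (2.62 to 7.02). These were the 3 of 7 pairs whose interval excluded no difference. The log2 ratios of CCNT1 and CCNT2 were -0.26 and 0.32, and 0.10 and 0.19 after subtraction of chromosomal neighbours. For CDK8 and CDK19 they went from 0.75 and 0.40 to 0.30 and 0.25. For KMT2C and KMT2D they went from 0.05 and -0.23 to 0.23 and 0.17. The gap within each of these pairs was thus narrower after that subtraction, and the part of chromosomal position in it was not tested. After the GC and length correction CCNT1 and CCNT2 stood at -0.44 and 0.08, CDK8 and CDK19 at 0.75 and 0.26, and KMT2C and KMT2D at -0.09 and -0.18. The gap was then wider for CDK8 and CDK19 and narrower for the other pairs. The shares of MED13, BRD2 and EP300 in their pairs differed by -0.34, -0.99 and -0.40 points, with intervals of -2.06 to 1.28, -2.75 to 0.64 and -3.18 to 2.34, so a shift of over 4 points lies outside each. MED12 made up 99.1% and 98.4% of its pair with MED12L.

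**Figure D3:**
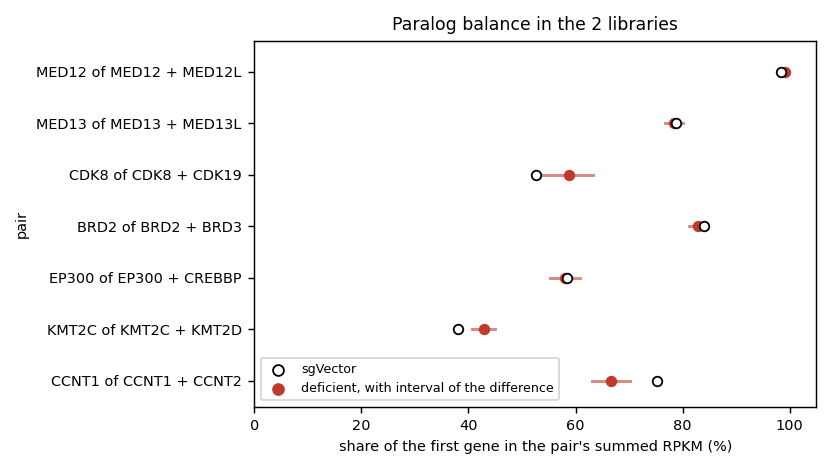
Share of the first gene in the summed RPKM of each paralog pair (horizontal axis, %), in the sgVector library (open circles) and the deficient library (filled circles), with lines for the 95% interval of the difference from sgVector. CCNT1 lies to the left of its sgVector value (66.7% against 75.2%), while CDK8 and KMT2C lie to the right of theirs.

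Base composition and length moved with these ratios. When protein-coding genes were cut into 5 classes by GC content, the median log2 ratio went from 0.14 where GC was lowest to -0.20 where it was highest. The members had the same lean: of 26 with a GC content under the protein-coding median of 48.0%, 19 were above 0, and of the other 21, 9 were. Spearman's rho between ratio and GC content was -0.36 over the 47 members and -0.32 over 10576 protein-coding genes, and with log10 length it was 0.26 and 0.21, descriptions across genes that share their libraries. The median GC content was 43.2% in the kinase module, 40.7% in the cohesin group and 53.8% in the tail. After lowess trends on GC content and length were removed, the kinase module median was 0.20 with 6 of 6 genes above 0, and the cohesin median was 0.0162. The median of the transcription kinases stayed low at -0.26, as did that of the tail at -0.17. Among the former and their cyclins, CDK7 and CCNT1 stood at -0.43 and -0.44. CDK9 went from -0.24 to -0.088 and CCNT2 from 0.32 to 0.078, and CDK9, CCNT1 and CCNT2 moved beyond their counting intervals. CDK8, KDM6A, MED7 and MED1 stood at 0.75, 0.53, 0.54 and 0.50. The correction moved 15 members beyond their counting intervals, among them MED13 from 0.29 to 0.0194 and CCNC from 0.28 to 0.0915.

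**Figure D4:**
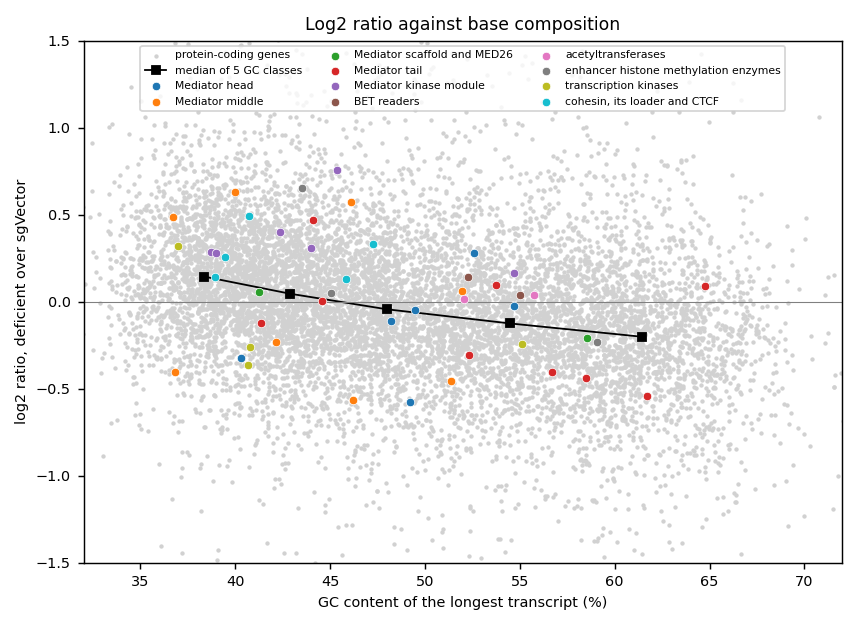
Log2 ratio (vertical axis) against GC content of the longest transcript (horizontal axis, %) for protein-coding genes (grey; genes beyond the axis limits are not drawn) and the 47 expressed members (coloured by complex). Squares join the medians of 5 GC classes of equal size, which go from 0.14 to -0.20.

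Chromosomal position moved with the ratios too. Each member was set beside its neighbours, the protein-coding genes up to 5 Mb away, by their median log2 ratio. Over 47 members, Spearman's rho between both values was 0.45, a description across genes that share chromosomes and libraries. CDK8 and MED4 lie on chromosome 13, where 180 protein-coding genes had a median of 0.46. The neighbours of MED4 stood at 0.46, within 0.02 of its own 0.48, while CDK8 lay 0.30 above its neighbours (0.45). RAD21 lay 0.10 above neighbours at 0.40. MED30, less than 1 Mb from RAD21 on chromosome 8, had a ratio of 0.00, which is 0.44 below its neighbours.

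Other members differed from genes around them. KDM6A stood 0.71 above its neighbours, MED13L 0.61, MED1 0.57 and SMC1A 0.50. MED10 and MED19 each stood 0.55 below, and CDK7 0.50 below. The kinase module had 5 of 6 genes above their neighbours, CCNC being the exception at -0.07, with a median difference of 0.24. The parts that base composition, length and chromosomal position had in these ratios were not tested.

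**Figure D5:**
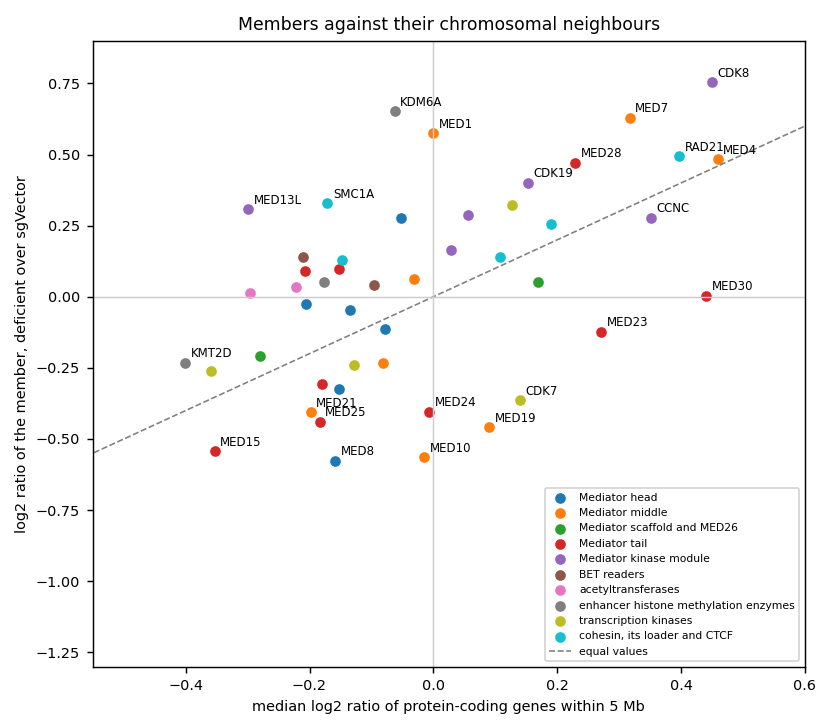
Log2 ratio of each of the 47 expressed members (vertical axis) against the median log2 ratio of the protein-coding genes within 5 Mb of it (horizontal axis), coloured by complex. On the dashed line both are equal: MED4 lies close to it, KDM6A and MED1 lie far above it, and MED10 and MED19 far below.

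Exons of most members overlap another row at least in part. The exons of 21 of the 49 genes overlap no other row of the table, 5 genes have over 20% of their exon length overlapped, and over 50% of the exon length is overlapped in 2, MED31 (58.3%, by TXNDC17 on the other strand) and MED26 (50.1%). For MED28 the share was 32.1%, by FAM184B on the other strand, which had 12 and 17 reads. Pseudogene rows named after a member numbered 30, and 2 of them held over 1% of their parent's reads. These were SMC3P1, with 8.94% of the reads of SMC3, and CDK7P1, with 3.502% of those of CDK7, so the values of both parents are uncertain by such amounts. The strand setting is likewise not given in the sources used here.

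Further genes of the transcription machinery came from separate lists. In the super elongation complex, which holds P-TEFb and releases paused polymerase, 6 of 6 expressed genes were above 0 with a median of 0.24. Of protein-coding genes 46.4% were above 0. AFF1, a scaffold of that complex, stood at 12.6 against 8.35 RPKM, 1.51-fold higher (1.41 to 1.62), and the elongation factor gene ELL2 at 36.2 against 23.9 RPKM, 1.52-fold higher (1.45 to 1.59). After the GC and length correction the median of these genes was 0.32 with 5 of 6 above 0, and AFF1 and ELL2 stood at 0.46 and 0.40, under 1.5-fold. The chromosomal neighbours of ELL2 had a median of 0.47, and ELL2 lay 0.13 above them, while AFF1 lay 0.45 above its own. Of 12 RNA polymerase II subunit genes 9 were below 0, against 53.6% of protein-coding genes, with a median of -0.16. After the GC and length correction that median was -0.014, with 6 of 12 above 0. In this list POLR2F and POLR2J were 1.54-fold (1.33 to 1.795) and 1.52-fold (1.28 to 1.81) lower. POLR2J has close paralogs, so its reads are uncertain. Pausing and elongation factors had a median of -0.15 over 9 genes (-0.075 after the correction), from -0.54 for NELFE to 0.33 for CDK12, with 0 past 1.5-fold. Among P-TEFb regulators HEXIM2 had 50 reads against 31, a log2 ratio of 0.62 whose interval reached no change.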

How the data were processed

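Libraries were made from polyA RNA, per the labels; their protocols name oligo(dT) selection and ribosomal RNA removal as alternatives. The submitters' processing notes name Subread, featureCounts 1.6.4 and the builds GRCh37 and hg19. Aligner, annotation release and strand setting were not given in the sources used here. The authors deposited RPKM values, 1 column per library, with exon coordinates and gene lengths per the file headers. Multiplying RPKM by length recovered a whole number of reads in 100.0% of rows (tolerance 0.0001), from which intervals were made. A value of 0 allows up to 3 reads, or 0.183 and 0.185 reads per 1000000. Since PCR copies were not marked by molecular identifiers, reads are not independent molecules, and both intervals and this limit cover only counting error.

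Symbols were taken from a gene name table (56414 of 60880 rows matched), gene types and GC content from GENCODE release 29, and promoter sequences from RefSeq. Chromosome Y copies of 41 pseudoautosomal genes were dropped. Log2 ratios used a pseudocount of 0.1 RPKM, which understates the change of low genes; fold differences are ratios of read shares without it. No p-values were computed, since each group had 1 library. Members and gene lists were chosen with earlier results of these data known. All 49 members could be named. From the further lists, genes were named if past 1.5-fold with at least 50 reads, or else as the highest and lowest of their list. CCNH and CDK13 were named outside this rule. GC and length trends were lowess fits (share 0.3) on protein-coding genes. The steps were tested on simulated data. Alternatives are in the closing section. Work was done in Python 3.11.15 with scipy 1.17.1 (intervals), statsmodels 0.14.6 (lowess), numpy 2.4.6 and pandas 2.3.3; matplotlib 3.10.9 drew the figures.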

Additional observations from a re-analysis of the deposited data

How the results depend on the processing

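No paired analysis was possible because each group has 1 library. For single members, 395 of 441 values under other settings lay within the counting interval and 22 changed sign, 8 of these after the neighbours' median was subtracted and 6 with the GC and length correction. Medians were set against the range from the median of their members' lower bounds to that of their upper bounds. That range is not a counting interval of the median, and 119 of 131 values lay within it. Subtracting the neighbours' median moved the BET readers to 0.24, the acetyltransferases to 0.28, the methylation enzymes to 0.23, the transcription kinases to -0.0074 and the cohesin group to 0.10. The GC and length correction moved the kinase module to 0.20, the methylation enzymes to -0.0894 and the cohesin group to 0.0162. With a floor of 5 RPKM, which leaves fewer genes, the middle stood at -0.41 and the methylation enzymes at -0.23, and without their farthest member, KDM6A, the latter stood at -0.0898. With MED27 to MED30 counted in the head, the tail stood at -0.40. Of the 3 members past 1.5-fold, 1 was past it with a pseudocount of 1 RPKM and 1 with the GC and length correction, and 0 had their whole interval past it. In the other direction, MED1 also passed 1.5-fold under trimmed-mean, upper-quartile and median-centred scaling, at log2 ratios of 0.65, 0.61 and 0.63. For shifts other than those made by the floor or by regrouped or left-out members, the cause was not tested. The kinase module median ranged from 0.20 to 0.37 over its alternatives, and the scalings moved the median of all genes by at most 0.07. Depth limits members with few reads, such as MED12L, MED31 and MED11.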

Other observations

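Chromatin remodellers and other coactivators outside the list differed in both directions. Over 15 SWI/SNF subunit genes, whose products slide nucleosomes at enhancers, the median log2 ratio was -0.05 with 6 above 0 and 9 below, and 0 passed 1.5-fold. PBRM1 stood highest, at 4.45 against 3.33 RPKM, 1.34-fold higher from 704 and 521 reads. SMARCA2, an ATPase of the complex, stood lowest, at 1.84 RPKM (562 reads) against 2.76 RPKM (833 reads), 1.498-fold lower (1.34 to 1.67). SMARCA2 lies on chromosome 9 from 1980290 to 2193624 in hg19, among protein-coding genes with a median of -0.89, and stood 0.33 above them.

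Of 5 other coactivator genes, 4 were above 0, with a median of 0.32, or 0.21 with 3 of 5 above 0 after the GC and length correction. NCOA2, a partner of nuclear receptors, stood at 3.22 against 2.44 RPKM, 1.32-fold higher (1.16 to 1.51), and the acetyltransferase gene KAT2A at 43.5 against 53.6 RPKM, 1.23-fold lower (1.17 to 1.30). Over all 73 expressed genes of the 9 further lists, 35 were above 0 and 38 below, with a median of -0.01, 4 past 1.5-fold higher and 3 lower. Of protein-coding genes 46.4% were above 0, 6.92% were past 1.5-fold higher and 8.67% lower.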
